A study of Homo sapiens with 20 samples.

Results

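Transfer RNA genes were examined as a class in ChIP-seq peak lists from HCT116, an established human colorectal carcinoma line. The members were the 439 genes that RefSeq on GRCh38 classes as tRNA on chromosomes 1 to 22, out of 56752 RefSeq genes on those chromosomes and 465 tRNA genes on all chromosomes. Each gene was taken with 200 bp on either side, and a peak was counted at a gene when it overlapped that window by at least 1 bp. The groups were HCT116 cells with a knockout of MLL4 (KO) and their wild-type counterparts (WT). Both lines were received as a gift and grew in the same serum-containing medium. No p53-activating treatment is named, and whether the knockout line is a single clone is not stated. Each genotype has 2 libraries of p53, H3K4me3 and H3K27ac and 1 of MLL1, MLL4 and H3K4me1, which makes 18 peak lists. Each was called alone against the input of its genotype, so the KO lists share an input and the WT lists share another. The labels do not tie replicates to separate cultures, so the spread between libraries may be technical. An exact permutation test of 2 libraries against 2 cannot go below a two-sided p of 0.33, and a single library per genotype allows no test, so differences are given as values beside that spread.

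A tRNA gene is transcribed by RNA polymerase III from a promoter inside the gene itself, made of an A box and a B box. TFIIIC binds these boxes and places TFIIIB upstream, which recruits the polymerase. Human cells transcribe only part of their tRNA genes, and the chromatin beside the transcribed ones carries H3K4me3 and H3K27ac, as that of active polymerase II promoters does. MLL4, encoded by KMT2D, writes H3K4me1 mainly at enhancers, MLL1, encoded by KMT2A, writes H3K4 methylation at promoters, and p53 is a sequence-specific transcription factor that in other settings represses polymerase III through TFIIIB.

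The same tRNA sequence can lie in different chromatin. Of the 439 genes, 14 fell wholly within promoter windows of other genes for which RefSeq (GRCh38.p14) gives the sequence, and among them 2 pairs were identical base for base over 72 bases. They are printed 5′ to 3′ along the strand of that promoter window, with capitals at any match on either strand to the B box motif GTTCGANNC, N being any base. The first pair reads histidine tRNA and shows the strand opposite to the tRNA, and the second pair, of proline tRNA, has no exact match.
TRH-GTG1-9: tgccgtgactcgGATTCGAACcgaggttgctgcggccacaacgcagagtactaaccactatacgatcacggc
TRH-GTG1-3: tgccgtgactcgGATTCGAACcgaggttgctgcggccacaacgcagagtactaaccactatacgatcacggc
TRP-TGG3-2: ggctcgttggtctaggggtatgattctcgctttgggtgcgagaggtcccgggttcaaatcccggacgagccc
TRP-TGG3-5: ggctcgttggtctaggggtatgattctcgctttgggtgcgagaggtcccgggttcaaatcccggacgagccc
TRH-GTG1-9 lies at chr15:45201151-45201222, within the promoter window of SHF, and TRH-GTG1-3 at chr1:148281365-148281436, within that of the noncoding gene LINC01731. At TRH-GTG1-9 the H3K4me3 fold was 43.9 and 55.0 in KO and 46.7 and 50.3 in WT, and the H3K27ac fold was 18.9 and 24.2 in KO and 43.6 and 32.3 in WT. Its twin TRH-GTG1-3 had no histone peak in any WT library, and in KO an H3K4me3 peak of fold 48.5 in replicate 2 and an MLL1 peak of fold 15.3. TRP-TGG3-2 lies at chr14:20684016-20684087, in the promoter window of ANG, the ribonuclease angiogenin, and TRP-TGG3-5 at chr16:3188094-3188165, in that of the olfactory receptor gene OR1F1. H3K4me3 at TRP-TGG3-2 had folds of 24.0 and 25.3 in KO and of 47.5 and 63.8 in WT, while TRP-TGG3-5 had no H3K4me3 peak in any library. The handling of reads that match several places is not given in the sources used here, and its part in these values was not tested.

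A further 2 sequences are shown because all or nearly all targets were found at them.
TRR-ACG2-1: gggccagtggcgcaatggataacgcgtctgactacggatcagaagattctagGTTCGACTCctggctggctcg
TRT-TGT6-1: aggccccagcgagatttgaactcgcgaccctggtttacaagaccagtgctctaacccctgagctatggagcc
TRR-ACG2-1, an arginine tRNA gene at chr3:45688999-45689071, is read here along its own strand and lies in the promoter window of LIMD1-AS1. Its MLL1 fold was 71.3 in KO and 18.1 in WT. TRT-TGT6-1, a threonine tRNA gene at chr5:181191687-181191758, lies in the promoter window of TRIM7-AS2. In WT it had an MLL4 peak of fold 5.84, and no MLL4 peak in KO. The motif, searched on both strands, was found in 10 of the 14 tRNA genes and in 291 of the 35116 promoter windows of the table (0.829%). No match says only that these letters are not in the window.

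Fold here is the authors' fold enrichment of a peak over its local background, and the highest peak in a window gave the gene its value. Read depth is not known, and the peak lists differed in length. On the whole, 8 of 12 colon epithelium markers had an H3K4me3 peak within 1 kb of a gene end in every library, EPCAM, CDH1, KRT8, KRT18 and CDX2 among them, while KRT20, CDX1, VIL1 and CDH17 had none. Of 5 blood markers, SPI1 alone had H3K4me3 in every library, and of 4 fibroblast markers COL1A1 alone. The MLL4 list of KO held 280 peaks and that of WT 56801, as the genotype labels say they should differ.

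Classes were set from the WT histone lists. A tRNA gene was called active when it had H3K4me3 and H3K27ac in both WT libraries of each, unmarked when it had none of H3K4me3, H3K27ac and H3K4me1 in any WT library, and partly marked otherwise. The names describe chromatin, since RNA was not measured. There were 162 active genes (36.9%), 173 partly marked genes (39.4%) and 104 unmarked genes (23.7%). No peak of any target lay at 95 genes. Of the active genes, 34.0% lay within 1 kb of a protein-coding gene, against 10.6% of the unmarked ones. Among all 439 genes 89 lay that close, 49 of them inside the coding gene.

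Isotypes were unevenly marked. Of the 26 arginine tRNA genes 15 were active and 4 unmarked, and of the 32 leucine tRNA genes 16 were active and 6 unmarked. Cysteine stood at the other end, with 3 active and 16 unmarked of 29 genes, and alanine had 10 active and 17 unmarked of 38. None of the 20 proline, 8 initiator methionine and 7 tryptophan genes was unmarked. Initiator methionine tRNA, which starts every protein, is encoded by the TRX-CAT1 family, of which 1 gene was active and 7 were partly marked.

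**Figure D1:**
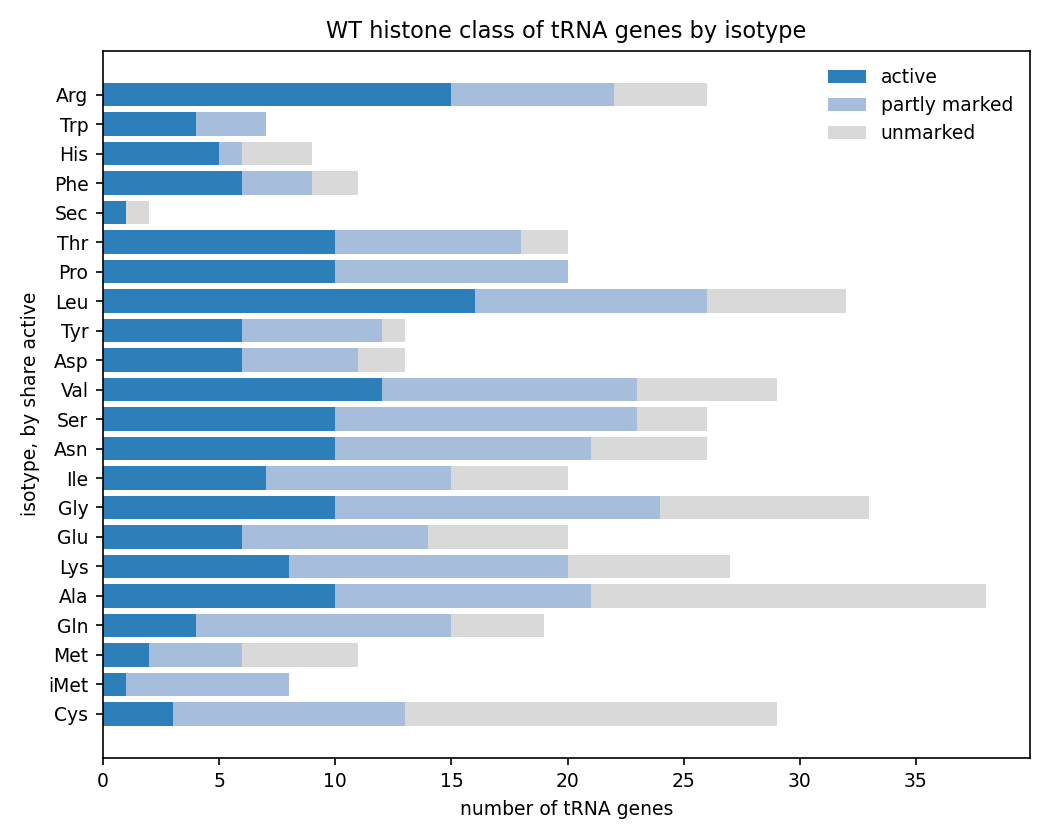
Number of tRNA genes of each isotype (horizontal axis) that were active, partly marked or unmarked in WT, with isotypes ordered by the share active. Arginine has 15 active genes of 26 and cysteine 3 of 29.

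Position went with these classes. Genes with gaps of up to 100 kb formed 129 clusters. Chromosome 6 held 155 of the genes, of which 31 were active (20.0%), and its most populous cluster, chr6:28474552-28989083, had 9 active, 29 partly marked and 5 unmarked genes. In the cluster at chr17:8119155-8227064, 12 of 18 genes were active and none unmarked, and in that at chr5:181097070-181222467, 11 of 17 were active. The cluster at chr7:149546540-149707740 held 13 genes, none active and 9 unmarked, and all 6 genes of chr6:57800211-57856473 were without a peak in every library. Genes of the same sequence often differed in class. By their symbols, 217 genes fell into 55 families of 2 or more genes with the same mature tRNA, and 33 families held active genes together with others, 12 of them active with unmarked ones. All members were active in 9 families, such as the 5 TRY-GTA5 tyrosine genes, and all unmarked in 4. The 11 aspartate genes of TRD-GTC2 split into 5 active, 4 partly marked and 2 unmarked.

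The number of tRNA genes under a peak moved in different directions for different targets. H3K27ac covered 196 and 205 genes in KO and 240 and 230 in WT, and H3K4me1 covered 153 in KO and 284 in WT. MLL1 covered 119 genes in KO and 85 in WT. p53 covered 76 and 97 genes in KO and 34 and 42 in WT, with both KO libraries above both WT libraries. H3K4me3 covered 228 and 182 genes in KO and 213 and 214 in WT, so the KO values lay on either side of WT. The p53 lists held 24972 and 62250 peaks in KO and 36537 and 32638 in WT. The MLL1 list held 29075 peaks in KO and 36943 in WT. The part of list length in these counts was not tested.

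**Figure D2:**
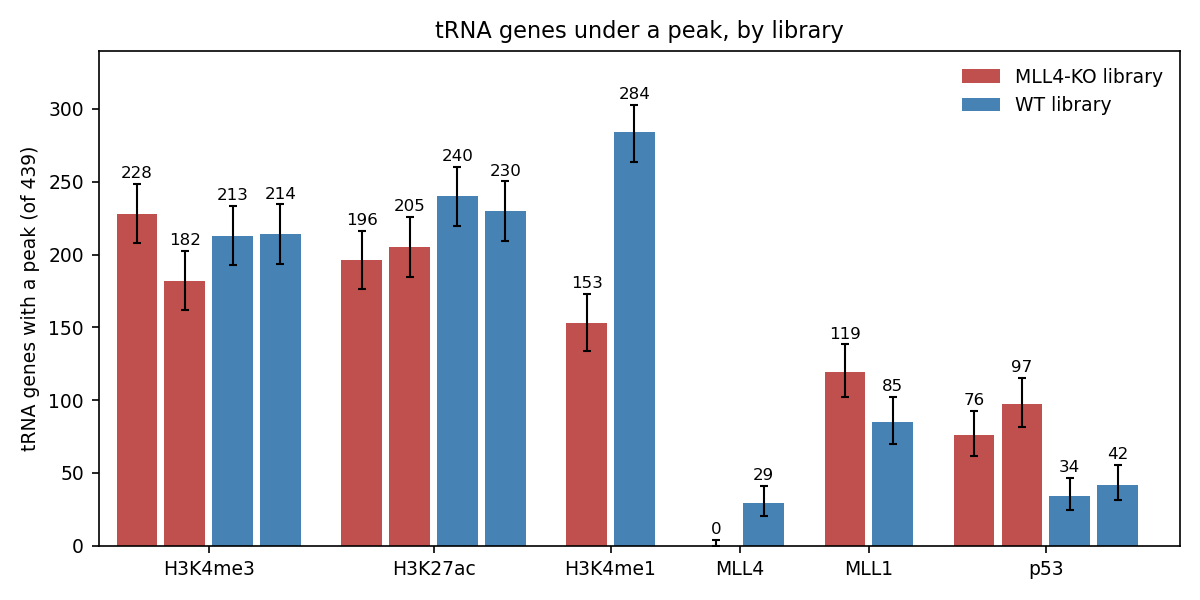
Number of the 439 tRNA genes with a peak in each library (vertical axis), KO libraries left and WT libraries right within each target, with 95% Wilson intervals for counting error. The p53 and MLL1 bars are higher in KO, with 76, 97 and 119 genes, than in WT, with 34, 42 and 85.

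Across all windows of 473 bp, the width of a typical tRNA window, on chromosomes 1 to 22, peaks in every library of a genotype were rare. H3K4me3 covered 1.41% of windows in KO and 1.32% in WT, H3K27ac 2.03% in KO and 6.63% in WT, and H3K4me1 2.41% in KO and 9.48% in WT. MLL4 covered 0.011% of windows in KO and 1.48% in WT, MLL1 1.48% in KO and 1.31% in WT, and p53 0.8% in KO and 0.89% in WT. At tRNA genes the shares were 39.6% in KO and 45.1% in WT for H3K4me3, and 41.9% in KO and 48.3% in WT for H3K27ac. Those for H3K4me1 were 34.9% in KO and 64.7% in WT. MLL1 was at 27.1% of tRNA genes in KO and 19.4% in WT. These shares lay between those of all windows and those of 15100 protein-coding promoters of the same width, where H3K4me3 was at 61.2% in KO and 60.8% in WT and MLL1 at 61.4% in KO and 54.2% in WT. H3K4me1 was the exception, since promoters had it at 21.8% in KO and 50.3% in WT, less than tRNA genes in both genotypes.

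MLL4 had a peak at 0 of 439 tRNA genes in KO and at 29 (6.61%) in WT, 95% Wilson interval 4.64% to 9.33%. All 29 were therefore called in WT and not in KO, as were 99.6% of all windows with MLL4 in WT. The few KO peaks lay elsewhere, and 50.1% of the windows they covered had no WT peak. The 0 of 439 in KO is bounded at 0.867% by the interval. MLL4 at tRNA genes had WT folds from 3.23 to 10.8 with a median of 4.97, against a median of 4.17 over all WT peaks. Restricting WT peaks to a −log10 q of at least 5 left 9 genes, taking the gene without flanks left 8, and 16 of the 29 lay over 1 kb from coding genes.

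The highest MLL4 fold, 10.8, was at TRI-TAT1-1, an isoleucine tRNA gene at chr19:39412168-39412260, 409 bp from PLEKHG2. There MLL1 was called in KO, with fold 9.71, and not in WT, and p53 was called in both KO libraries, with folds of 7.91 and 8.88, and in neither WT library. H3K27ac at TRI-TAT1-1 was uncalled in KO replicate 1 and had fold 33.1 in KO replicate 2, against 50.8 and 48.8 in WT. TRE-TTC1-2, a glutamate tRNA gene inside ELF1, and TRL-AAG2-4, a leucine tRNA gene 188 bp from POLR3E, which encodes a polymerase III subunit, each had an MLL4 fold of 7.50 in WT. The next were TRL-CAG1-3 with 6.79, TRE-TTC4-1 with 5.90, and TRI-TAT2-1, TRR-TCT1-1, TRT-TGT6-1 and TRV-AAC1-3 with 5.84 each. Of these 9 genes all but TRL-CAG1-3 and TRV-AAC1-3 were active. H3K4me3 stayed called in all KO libraries at those 7, with no shared direction. TRI-TAT1-1 had folds of 82.5 and 95.9 in KO and 62.2 and 53.7 in WT, so that KO lay above WT. TRL-AAG2-4 had 134 and 136 in KO and 183 and 209 in WT, so that KO lay below WT, as it also did at TRE-TTC1-2. The genotypes overlapped at the other 4.

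H3K4me3 was kept at most tRNA genes. Of 174 genes called in both KO libraries 1 was called in no WT library (0.575%), against 4.94% of windows and 0.184% of protein-coding promoters. Of 198 genes called in both WT libraries 2 were called in no KO library (1.01%), against 3.02% of windows and 0.501% of promoters. A further 168 genes were called in all 4 libraries and 76 in some other combination. The KO-only gene was TRK-CTT1-2, a lysine tRNA gene at chr15:78860562-78860634, with folds of 27.3 and 23.7 in KO. The WT-only genes were TRG-CCC5-1 (glycine), with folds of 19.0 and 14.9 in WT, and TRN-GTT8-1 (asparagine), with 6.74 and 12.0 in WT. MLL1 at both of these was called in WT alone, with folds of 8.55 and 5.37.

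Replicates set these counts. KO replicate 2 lacked H3K4me3 at 27 genes that KO replicate 1 and both WT libraries had, 15 of them on chromosome 6, and their folds were low, with medians of 11.4 in KO replicate 1 and of 7.54 and 8.19 in WT. Without KO replicate 1 the WT-only count would be 29, and without KO replicate 2 the KO-only count would be 14. At the 168 genes called in all 4 libraries the median fold was 37.8 and 42.1 in KO and 31.2 and 38.4 in WT. The median log2 ratio of KO to WT lay between −0.11 and 0.21 over the 4 library pairs, beside 0.03 between the KO replicates and 0.20 between the WT replicates, so no shift beyond the replicate spread was seen. Both KO values were below both WT values at 29 genes (17.3%), against 20.5% of windows, and above them at 43 (25.6%), against 13.6% of windows.

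The highest H3K4me3 folds were at tRNA genes beside or inside coding genes. TRG-TCC1-1 (glycine), 228 bp from DPP9, had 159 and 229 in KO and 218 and 225 in WT, and the valine gene TRV-CAC3-1, which lies within the same cluster, had the same values. KO and WT overlap there. TRM-CAT6-1, an elongator methionine gene inside FBXO31, had 116 and 199 in KO and 205 and 204 in WT, with KO below WT. TRF-GAA1-6 (phenylalanine), 473 bp from NDUFS7, had 163 and 207 in KO and 185 and 205 in WT, again overlapping. At tRNA genes over 1 kb from coding genes the median H3K4me3 fold of genes called in all libraries was 29.2 and 29.0 in KO and 22.2 and 27.6 in WT.

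H3K27ac lost height at tRNA genes in KO while most peaks stayed called. Among the 168 genes with H3K27ac in all 4 libraries the median fold was 12.4 and 14.3 in KO and 31.7 and 25.1 in WT. The median log2 ratio of KO to WT lay between −1.10 and −0.70, beside 0.19 between the KO replicates and −0.09 between the WT replicates. Both KO values lay below both WT values at 136 of the 168 genes (81.0%), against 82.6% of windows, and above them at 1 gene (0.595%), against 1.5% of windows. Protein-coding promoters showed ratios of −1.03 to −0.90 and windows of −1.0 to −0.96. The shift at tRNA genes is thus near that of all windows with the mark.

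Loss of the H3K27ac call was less common at tRNA genes than over windows. Of 212 tRNA genes called in both WT libraries 24 had no KO peak (11.3%, 95% Wilson interval 7.73% to 16.3%), against 53.6% of windows and 12.7% of protein-coding promoters. Of 184 called in both KO libraries 5 had no WT peak (2.72%), against 4.04% of windows and 0.111% of protein-coding promoters. Of the 24 WT-only genes, 14 were on chromosome 1, 19 were partly marked and 22 lay over 1 kb from coding genes. Of all 439 tRNA genes, 98 were on chromosome 1, 173 were partly marked and 350 lay over 1 kb from coding genes. Of the 212 called in both WT libraries, 50 were partly marked and 147 lay that far. Cutting all H3K27ac lists to the same length gave 8 WT-only and 6 KO-only genes. Counting a peak only with its summit in the window gave 6 WT-only and 7 KO-only genes. Under these settings the excess of WT-only genes was small or absent. Leaving out WT replicate 1, WT replicate 2 or KO replicate 2 gave 41, 38 and 37 WT-only genes, and 16, 5 and 9 KO-only genes.

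TRG-TCC2-3, a glycine tRNA gene at chr1:161454966-161455037, had the highest WT-only H3K27ac fold, with no peak in KO and 46.4 and 45.6 in WT. The neighbouring glutamate gene TRE-CTC1-3, at chr1:161454608-161454679, had those same values in WT and kept H3K27ac in KO, with 21.1 and 16.9. The other WT-only genes were weaker. TRG-GCC2-1 had folds of 8.08 and 14.3 in WT, the TRNAG-CCC gene at chr1:1133722-1133792 6.90 and 11.7, TRG-GCC1-3 6.24 and 11.9, and the tryptophan gene TRW-CCA5-1 6.87 and 11.0. The KO-only genes had folds between 2.81 and 7.79. Of the 5, 4 were on chromosome 6, namely TRS-GCT6-1 and TRS-GCT5-1 (serine), TRF-GAA1-2 (phenylalanine) and TRA-CGC4-1 (alanine), and TRN-GTT2-2 (asparagine) was on chromosome 1.

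The highest H3K27ac fold was at TRR-CCT4-1, an arginine tRNA gene inside LUC7L2, with 50.8 and 62.1 in KO and 113 and 93.5 in WT. TRK-CTT2-3 (lysine) and TRV-CAC1-5 (valine), both in the chromosome 5 cluster near TRIM41, had 39.3 and 40.7 in KO and 73.5 and 82.8 in WT. TRR-CCT1-1, TRR-CCT2-1 and TRR-TCG3-1, arginine genes inside KCTD2, had 35.7 and 44.7 in KO and 92.4 and 63.8 in WT. At these genes, chosen for their WT fold, KO lay below WT without overlap, as at 82.6% of windows called in all 4 libraries. Genes with equal values repeat a single measurement. Of the 168 genes, 19 had an MLL4 peak in WT and 149 had none. The median log2 ratio of KO to WT lay between −1.14 and −0.75 at the 19 and between −1.10 and −0.70 at the 149. Both KO values were below both WT values at 18 (94.7%) and at 118 (79.2%), against 82.6% of windows and 88.6% of protein-coding promoters. The part of MLL4 in this difference was not tested.

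**Figure D3:**
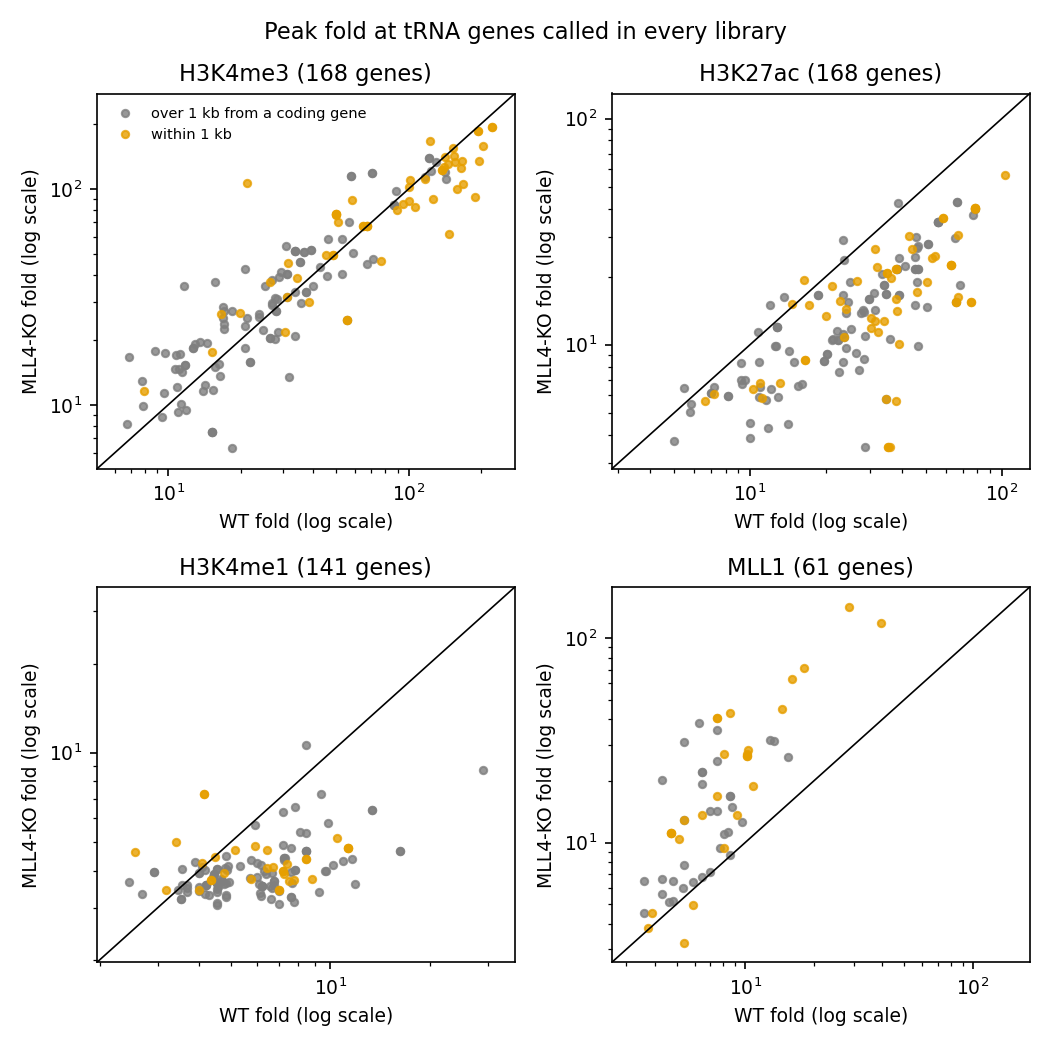
Fold in KO (vertical axis, log scale) against WT (horizontal axis, log scale) at tRNA genes called in every library of a target, as the mean over libraries where there are 2, with the diagonal marking equality and colour showing genes within 1 kb of a coding gene (orange) or farther (grey). H3K27ac points lie mostly below the diagonal (136 of 168 genes without overlap), MLL1 points mostly above it (59 of 61), H3K4me1 points mostly below it (126 of 141), and H3K4me3 points on both sides.

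H3K4me1 was rarer in KO. Of 284 tRNA genes with H3K4me1 in WT, 143 had none in KO (50.4%, 95% Wilson interval 44.6% to 56.1%), against 80.1% of windows and 59.7% of protein-coding promoters. Of 153 with the mark in KO, 12 had none in WT (7.84%), against 21.7% of windows and 7.22% of promoters. At the 141 genes called in both genotypes the median fold was 3.92 in KO and 6.06 in WT, a median log2 ratio of −0.56, with KO lower at 126 and higher at 15. The windows called in both had −0.63. With 1 library per genotype there is no replicate check. The KO list held 43640 peaks and the WT list 125510, and with both cut to the same length 89 genes were WT-only and 45 KO-only.

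Of the active genes with H3K4me1 in WT, 87 of 147 had it in KO too (59.2%), and of the partly marked ones 54 of 137 (39.4%). A WT H3K4me1 call alone can place a gene in the partly marked class, while the active class does not use this mark. The shares therefore cannot be compared as a result about the classes. TRE-CTC1-3 had the highest WT fold and kept the mark, with 8.73 in KO and 29.0 in WT. Its neighbour TRG-TCC2-3 had no peak in KO and the same 29.0 in WT. TRK-CTT2-5 and TRP-CGG1-2, lysine and proline genes of the chromosome 16 cluster at chr16:3150674-3192060, each had 4.66 in KO and 16.3 in WT. The lysine gene TRK-TTT3-5, 239 bp from ALOXE3, had no peak in KO and 13.5 in WT. KO-only folds were all low, from 3.02 to 4.35, the highest at TRW-CCA3-2, and 8 of the 12 genes were on chromosome 6.

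MLL1, the promoter methyltransferase, overlapped the windows of more tRNA genes in KO, and with higher fold. The median fold over covered genes was 10.4 in KO and 5.91 in WT. Of 119 genes with MLL1 in KO, 58 had none in WT (48.7%, 95% Wilson interval 39.9% to 57.6%), against 45.2% of windows and 13.3% of protein-coding promoters. Of 85 genes with MLL1 in WT, 24 had none in KO (28.2%), against 38.0% of windows and 1.92% of promoters. Both shares at tRNA genes lie nearer to those of windows than to those of promoters. A −log10 q of at least 5 gave 4 WT-only and 53 KO-only genes, while counting a peak only with its summit in the window gave 16 KO-only genes.

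At the 61 tRNA genes with MLL1 in both genotypes the median fold was 14.2 in KO and 7.52 in WT, a log2 ratio of 1.03, and 59 were higher in KO and 2 lower. All windows called in both had a median log2 ratio of 1.64, and promoters 1.69, so higher MLL1 folds in KO were not particular to tRNA genes, whose median ratio was the lowest of the 3. With 1 library per genotype, a difference in the quality of the immunoprecipitation and a difference between genotypes cannot be told apart. TRE-TTC1-2, which also had MLL4, reached 119 in KO and 39.6 in WT. TRN-GTT26-1, an asparagine gene at chr1:28755-28828, had 142 in KO and 28.5 in WT, and TRM-CAT6-1 had 63.0 in KO and 16.1 in WT. TRG-TCC1-1 had 44.7 in KO and 14.5 in WT, TRT-CGT4-1 (threonine) 31.5 in KO and 13.4 in WT, TRL-TAA1-1 (leucine) 31.7 in KO and 12.9 in WT, and TRR-CCG2-1 (arginine) 26.1 in KO and 15.4 in WT.

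The highest KO-only MLL1 fold was 56.8, at TRS-GCT4-2, a serine tRNA gene at chr15:40593825-40593906, 343 bp from KNL1. H3K4me3 there was 89.3 and 89.6 in KO and 118 and 134 in WT, so that KO lay below WT. TRS-CGA4-1 (serine) followed with 45.0, TRK-CTT2-2 (lysine) with 38.2, TRR-TCT3-1 (arginine) with 19.4 and TRG-CCC2-1 (glycine) with 16.6. All 5 were active. Among the 58 KO-only genes 38 were active, 17 partly marked and 3 unmarked, and 40 had H3K4me3 in all 4 of its libraries. Over all 439 tRNA genes the shares were 36.9%, 39.4%, 23.7% and 38.3%. Being active was not particular to the KO-only genes. Of all 119 genes with MLL1 in KO 94 were active, and of the 61 with MLL1 in both genotypes 56. WT-only folds were low, from 3.22 to 8.55.

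p53 peaks were called at more tRNA genes in KO than in WT. The peaks there were also wider, with median widths of 658 and 650 bp in KO and 448 and 430 bp in WT. The part of peak width in these calls was not tested. Of 63 genes with p53 in both KO libraries, 29 had none in either WT library (46.0%), against 22.6% of windows and 20.5% of protein-coding promoters. In the other direction 2 of 25 genes with p53 in both WT libraries had none in KO (8.0%), against 13% of windows and 4.01% of promoters. The 29 KO-only genes lay at 23 loci, when windows within 1 kb of each other are joined, on 12 chromosomes. Of them 26 were active, 23 had MLL1 in KO, and 25 had H3K4me3 in all 4 libraries. The shares over all 439 tRNA genes were 36.9%, 27.1% and 38.3%. These traits were not particular to the KO-only genes. Of all 63 genes with p53 in both KO libraries, 54 were active and 53 had MLL1 in KO. The KO folds were modest, from 3.60 to 19.9 with a median of 5.62 in replicate 1, and from 2.90 to 15.9 with a median of 6.39 in replicate 2.

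Proximity to coding genes went with these p53 calls. Of the 29 KO-only genes 17 were among the 89 tRNA genes within 1 kb of a coding gene, and 12 among the 350 farther away. The share of tRNA genes with p53 was 37.1% and 39.3% in KO and 8.99% and 10.1% in WT near coding genes, and 12.3% and 17.7% in KO and 7.43% and 9.43% in WT farther away, so both KO libraries were above both WT libraries in either position. Lists cut to equal length gave 24 KO-only genes and a −log10 q of at least 5 gave 21. Counting a peak only with its summit in the window gave 10, and leaving out KO replicate 1 gave 55.

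The highest KO-only p53 folds were at TRF-GAA1-6, at chr19:1383362-1383434, with 19.9 and 15.9 in KO. The asparagine gene TRN-GTT2-6, beside it, had those values in KO and also peaks in WT, of 15.1 and 12.0. TRR-CCT1-1, TRR-CCT2-1 and TRR-TCG3-1, 3 arginine genes inside KCTD2 at chr17:75033906-75035185, had 9.54 and 9.21 in KO, and TRE-TTC1-2 had 7.70 and 9.10. Both WT libraries had no p53 peak at these 4 genes. The WT-only genes were TRN-GTT2-8, with 7.55 and 17.6 in WT, and the unmarked TRE-TTC2-2, with 6.79 and 6.48 in WT.

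At genes that had p53 in all 4 libraries the folds did not go the same way as the calls. There were 20 of them, with median folds of 9.13 and 10.3 in KO and 11.0 and 13.4 in WT. The median log2 ratio of KO to WT lay between −0.90 and −0.09, beside 0.18 between the KO replicates and 0.51 between the WT replicates. Windows called in all 4 had −1.42 to −0.17. Both KO values were below both WT values at 10 genes (50%), against 55.5% of windows, and above at 1 (5.0%), against 3.73% of windows. Leaving out WT replicate 2 brought the median ratio to −0.03. TRE-CTC1-3 had the highest p53 folds in KO, 37.8 and 40.0, and in WT no peak in replicate 1 and 48.1 in replicate 2. Its neighbours TRG-GCC1-3 and TRL-CAG1-3 had no peak in KO replicate 1 and 15.6 in KO replicate 2, against 20.6 and 13.2 in WT replicate 1 and 47.1 for each in WT replicate 2. TRP-AGG2-7 (proline) had 7.43 and 8.39 in KO and 14.6 and 39.0 in WT, and TRI-TAT2-1 had 12.3 and 14.0 in KO and 9.06 and 25.4 in WT.

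**Figure D4:**
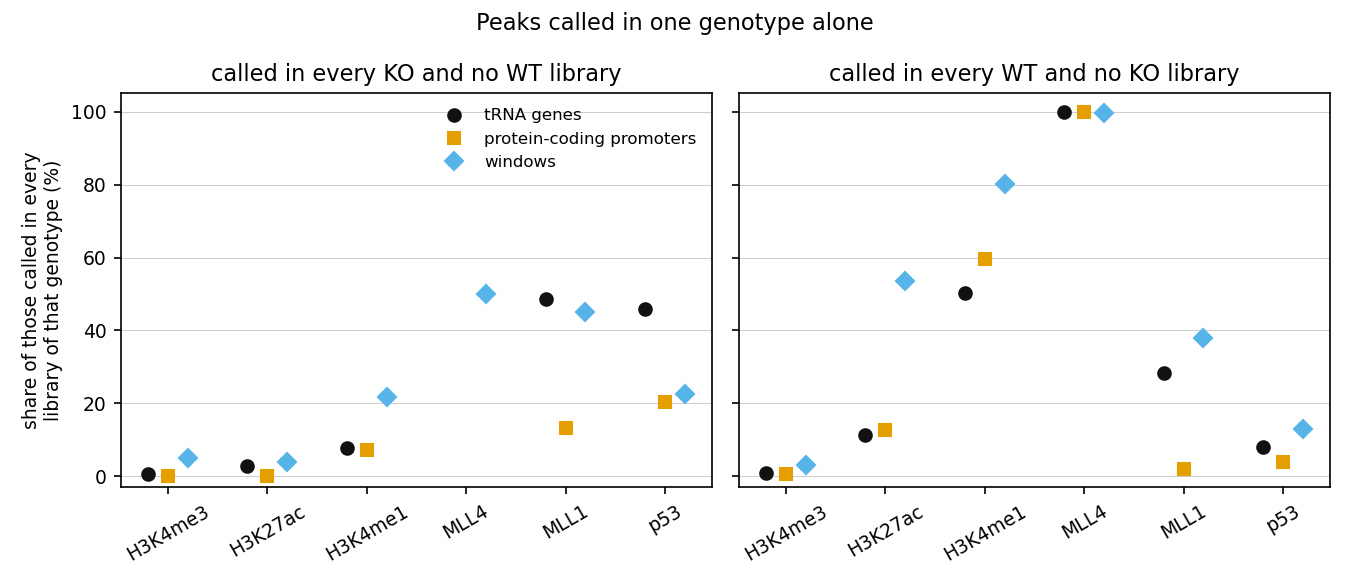
Share of features (vertical axis, %) called in every KO and no WT library (left) or in every WT and no KO library (right), among those called in every library of that genotype, for tRNA genes, protein-coding promoters and all windows. For p53 the KO-only share is 46.0% at tRNA genes, 20.5% at promoters and 22.6% over windows, and for H3K27ac the WT-only share is 11.3% at tRNA genes, 12.7% at promoters and 53.6% over windows.

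Peaks of MLL4, MLL1 and p53 were more frequent at active than at unmarked tRNA genes. MLL4 was in WT at 18 of 162 active genes (11.1%, 95% Wilson interval 7.14% to 16.9%) and at 2 of 104 unmarked genes (1.92%, 0.529% to 6.74%). The unmarked pair was TRK-CTT6-1 (lysine), inside ATP5F1A, with fold 5.67, and TRE-TTC2-2, with 4.85. MLL1 was at 94 active and 3 unmarked genes in KO, and at 72 active (44.4%) and 0 unmarked genes in WT, where 0 of 104 allows up to 3.56%. p53 in both libraries was at 54 active (33.3%) and 0 unmarked genes in KO, and at 17 active (10.5%) and 1 unmarked gene in WT. Partly marked genes lay between, with p53 at 9 genes (5.2%) in KO and 7 (4.05%) in WT. The intervals cover counting error only, and 72 of the active genes share a locus with another tRNA gene, so genes under the same peak are not independent. Taking genes without flanks, for the classes as well, left 82 active genes, and the WT p53 share among them was 1.22%.

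**Figure D5:**
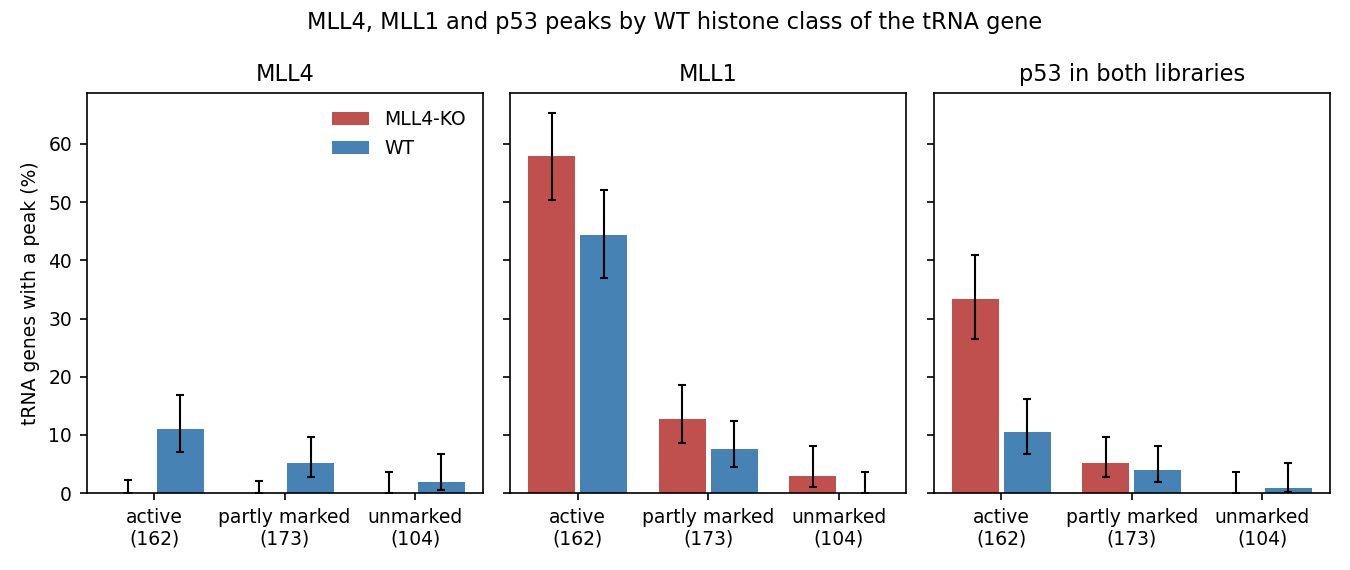
Share of active, partly marked and unmarked tRNA genes (vertical axis, %) with an MLL4, MLL1 or p53 peak, KO left and WT right, with 95% Wilson intervals. MLL1 and p53 stand highest at active genes, at 58.0% and 33.3% in KO and at 44.4% and 10.5% in WT.

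By the same rule applied to the KO lists 149 genes were active, of which 138 were active in both genotypes. The 11 others were partly marked in WT, and 24 genes active in WT were not in KO. No gene that was unmarked in WT was active in KO. Over all tRNA genes p53 was called in both libraries at 14.4% in KO and at 5.69% in WT. Protein-coding promoters also had a higher share in KO, with 49.3%, than in WT, with 39.3%. Windows had 0.8% in KO and 0.89% in WT. Of the tRNA genes with MLL1, those that also had p53 in both libraries made up 44.5% (53 of 119) in KO and 18.8% (16 of 85) in WT, and as a share of the genes with p53 these were 84.1% of 63 in KO and 64.0% of 25 in WT.

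Peaks lay beside tRNA genes more than on them. No H3K4me3 summit fell inside a tRNA gene in any library. Distances here run from the summit to the nearer end of the gene. For H3K4me3 the median was 422 and 438 bp in KO and 427 and 392 bp in WT. Summits of p53 lay at a median of 274 and 274 bp in KO and 284 and 324 bp in WT. MLL1 summits were at 367 bp in KO and 240 bp in WT, and the peaks were wider in KO, with a median width of 882 bp, than in WT, with 518 bp. MLL4 summits in WT lay at a median of 225 bp, and 2 of 29 were inside the gene.

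Genes with special tRNA roles showed the range. TRU-TCA1-1, which encodes selenocysteine tRNA, had H3K4me3 of 18.3 and 10.9 in KO and 9.48 and 12.6 in WT, and H3K27ac of 18.9 and 28.6 in KO and 29.1 and 18.3 in WT. The genotypes overlap in both marks, and no library of MLL4, MLL1 or p53 had a peak there. TRU-TCA2-1, the other selenocysteine entry, at chr22:44150657-44150740, had no peak of any target. The active initiator gene, TRX-CAT1-2, had H3K27ac of 13.5 and 17.6 in KO and 28.6 and 17.0 in WT. TRX-CAT1-1, 257 bp from ILF2, had H3K4me3 of 166 and 85.4 in KO and 156 and 175 in WT, and missed the active class because H3K27ac was called in WT replicate 1 alone, with 47.4, beside 9.70 and 9.80 in KO. The initiator genes had no p53 or MLL4 peak, and a single MLL1 peak of fold 4.18 at TRX-CAT1-5 in KO.

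A few other polymerase III genes had far higher MLL4 folds in WT than any tRNA gene. RN7SL1, the RNA of the signal recognition particle, had an MLL4 fold of 530 in WT and none in KO, and an MLL1 fold of 8.80 in KO and 87.0 in WT. RN7SK, which restrains the elongation factor P-TEFb, had MLL4 at 310 in WT and MLL1 at 8.44 in KO and 48.0 in WT. RMRP, the RNA of RNase MRP, had MLL4 at 45.0 in WT and MLL1 at 6.48 in KO and 11.3 in WT. MLL1 was at 10 of 20 such genes in KO and at 8 in WT. Of the 8 with MLL1 in both genotypes, 6 were lower in KO, and RNY5, with 36.9 in KO and 25.3 in WT, and RNU6-8, with 38.9 in KO and 8.06 in WT, were higher. RNU6-1 and RNU6-7 had MLL1 in KO alone, with 16.8 and 7.12. MLL4 in WT was at 6 of the 20 genes and absent from the other 14, and it was at 2 of 17 5S rRNA genes. The genes named here were chosen after their values were seen. Among 23 promoters of genes for polymerase III subunits and its factors, all had H3K4me3 and H3K27ac in every library. MLL4 was at 0 of them in KO and 7 in WT (30.4%), against 24.3% of all protein-coding promoters in WT. p53 in both libraries was at 16 of the 23 in KO (69.6%) and 7 in WT (30.4%). All protein-coding promoters had it at 49.3% in KO and 39.3% in WT. Only 61.2% of those promoters in KO and 60.8% in WT had H3K4me3, so they are not matched to the 23 in marking. Some genes of the chosen list, such as BRF2 and MAF1, are not among the 23.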

How the data were processed

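ChIP-seq was done in HCT116 cells of both genotypes, 20 libraries in all, 2 of them inputs that are not analysed here. Peaks were called with MACS2 2.1.1 on hg38, per the submitters' processing notes, each library alone per the peak names in the deposited lists. Which aligner and read filters were used, and the read depth, is not given in the sources used here. The deposited lists give each peak a fold enrichment, a ratio over local background made by the authors, the −log10 of its p and q values by the authors, and a deposited score. Fold was used to describe peaks and −log10 q to filter and rank them.

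The tRNA genes came from a RefSeq table on GRCh38.p14, the build of the lists, without strand. Presence needed an overlap of 1 bp with the gene and 200 bp on either side. WT-only genes had a call in all WT libraries of a target and in none of KO, and KO-only genes the reverse. The background was 6074774 windows of 473 bp. Comparators were promoter windows of protein-coding genes widened to 473 bp. Marker genes were read within 1 kb of either gene end. No p-value was computed. Intervals are 95% Wilson intervals. Overlap counting was tested on simulated data. Python 3.11.15, pandas 2.3.3 and numpy 2.4.6 were used. The members, lists and the rule for named genes (those with the highest fold per target, those called in a single genotype, and the selenocysteine, initiator and other polymerase III genes) were chosen with earlier results of these data known. Alternatives were a −log10 q of at least 5, lists of equal length, no flanks, summits in the window, genes over 1 kb from coding genes, merged loci and leaving out each replicate.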

Additional observations from a re-analysis of the deposited data

How the results depend on the processing

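Of the 156 values recomputed under another setting, 107 stayed within their margin, which was 1.5 times for counts, the Wilson interval for shares and for folds the SD over the library pairs, or 0.1 log2 where a genotype has 1 library. Where the rest went, the cause was not tested. With a −log10 q of at least 5 there were 2 KO-only H3K4me3 genes, 3 KO-only H3K27ac, 2 KO-only H3K4me1, 9 WT-only MLL4 and 4 WT-only MLL1 genes, and in WT MLL4 was at 4.32% of active and 0.0% of unmarked genes and MLL1 at 27.2% of active genes. With equal list length there were 8 WT-only H3K27ac, 89 WT-only and 45 KO-only H3K4me1 and 0 WT-only MLL4 genes, the shortest MLL4 list being that of KO. Without flanks there were 4 WT-only H3K4me3, 0 KO-only H3K27ac, 8 WT-only MLL4 and 1 WT-only p53 genes. The classes were then also set without flanks, which gave 82 active and 140 unmarked genes. Shares of these in WT were 4.88% of active and 0.0% of unmarked genes for MLL4 and 29.3% of active genes for MLL1. For p53 they were 1.22% of active and 0.0% of unmarked genes. The median log2 KO to WT ratio without flanks was 1.28 for MLL1, and for p53, at 1 gene, it turned to 0.20. With the summit in the window there were 0 KO-only H3K4me3, 6 WT-only H3K27ac, 11 WT-only MLL4, 16 KO-only MLL1, and 0 WT-only and 10 KO-only p53 genes. Among genes over 1 kb from coding genes there were 16 WT-only MLL4, 34 KO-only MLL1 and 12 KO-only p53 genes. Leaving out each replicate gave 3 to 29 WT-only H3K4me3 genes, with 29 without KO replicate 1 and 8 and 5 without WT replicate 1 and 2, and 1 to 14 KO-only ones, with 14 without KO replicate 2, 5 without KO replicate 1 and 6 without WT replicate 1. For H3K27ac it gave 31 to 41 WT-only and 5 to 16 KO-only genes, both highest without WT replicate 1, with 10 and 9 KO-only without KO replicate 1 and 2. For p53 it gave 2 to 6 WT-only genes, with 5 without KO replicate 2 and 6 and 4 without WT replicate 1 and 2, 34 to 55 KO-only genes, highest without KO replicate 1, and median log2 ratios from −0.72 to −0.03, the last without WT replicate 2. No paired analysis was possible because the results come from no test or fit that could hold a replicate block. Between libraries of the same number, 1 and then 2, the median log2 KO to WT ratio was 0.21 and 0.01 for H3K4me3, −1.10 and −0.70 for H3K27ac, and −0.26 and −0.73 for p53. Read depth is unknown, so a gene without a call may lie just under the calling limit, and genes under a shared peak repeat a single measurement.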

Other observations

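Of the 104 tRNA genes unmarked in WT, 6 had a peak of some target in KO. TRH-GTG1-6 (histidine), inside NFIB, had H3K4me1 of 3.87 and H3K4me3 of 3.79 in KO replicate 1. TRG-CCC1-2 (glycine) had H3K4me1 of 3.83 and H3K4me3 of 6.33 in KO replicate 1. The glycine genes TRG-GCC1-1 and TRG-GCC1-4 in the chromosome 1 cluster had MLL1 of 8.42 and 6.24 in KO, with p53 of 4.47 in KO replicate 2 at TRG-GCC1-4. TRK-TTT4-1 (lysine) had H3K4me1 of 3.02 in KO, and TRH-GTG1-3 had the peaks given above.

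Small RNA genes that are mostly processed from polymerase II transcripts gave another comparison. Of 2943 snoRNA and miRNA genes with the same flanks, H3K4me3 was called in every library of a genotype at 10.2% in KO and at 10.2% in WT, and MLL1 at 11.3% in KO and 9.31% in WT. Of those with MLL1 in KO 34.7% had none in WT, and of those with H3K27ac in both WT libraries 39.8% had none in KO.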
